A study of Mus musculus with 4 samples.

Results

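Glutamate and GABA transporters move the main excitatory and inhibitory transmitters of the brain across membranes, and 8 of their genes were followed here in the hippocampal transcriptome of wild type (WT) and Lsd1 knock-in (KI) mice. The genes were Slc17a7, Slc17a6, Slc17a8, Slc1a2, Slc1a3, Slc1a1, Slc1a4 and Slc6a11. They were taken by symbol and matched to their Ensembl gene identifiers, and all 8 were found among the 26328 genes listed in at least 1 sample. Poly(A) RNA was sequenced from 2 WT and 2 KI hippocampal samples of male C57BL/6 mice, which the study describes as littermates. In the KI mice the serine of LSD1 that protein kinase Cα phosphorylates was replaced by alanine in the endogenous gene, so the substitution is present in all cells, and the WT mice carry neither this change nor any other allele or treatment named in the labels. The labels give ages of 8 to 15 weeks for the behavioural experiments and none for the RNA samples. LSD1 is a histone demethylase, and the comparison of KI with WT asks which transcripts differ when it cannot be phosphorylated at this site.

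Vesicular glutamate transporters load glutamate into synaptic vesicles in excitatory terminals. In the adult forebrain VGLUT1 (Slc17a7) dominates in cortical and hippocampal principal neurons, VGLUT2 (Slc17a6) in thalamic and other subcortical neurons, and VGLUT3 (Slc17a8) in sparse populations that include cholecystokinin interneurons. After release, glutamate is cleared by plasma membrane transporters, mostly by the astrocyte proteins GLT-1 (Slc1a2) and GLAST (Slc1a3), with the neuronal EAAC1 (Slc1a1) as a further member of the family. ASCT1 (Slc1a4) belongs to the same family by sequence but carries neutral amino acids such as alanine and serine, so its place among glutamate transporters is by kinship, and Slc6a11 encodes a GABA transporter found largely in astrocytes.

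The RefSeq promoter table for GRCm38.p6 held 10 windows for the 8 genes. The 250 bases before the start are shown for Slc17a7, the most abundant transporter, and Slc1a3, the one with the smallest p-value in the comparison of KI with WT. They are the 2 genes whose KI and WT values did not overlap under any scaling used. Both are written 5′ to 3′ on the strand of the gene, and capitals mark the matches, on either strand, to 4 motifs: the E-box CACGTG, the GC box GGGCGG, the TATA box TATAAA and the CCAAT box CCAAT.
Slc17a7, chr7:45163671-45163920, plus strand: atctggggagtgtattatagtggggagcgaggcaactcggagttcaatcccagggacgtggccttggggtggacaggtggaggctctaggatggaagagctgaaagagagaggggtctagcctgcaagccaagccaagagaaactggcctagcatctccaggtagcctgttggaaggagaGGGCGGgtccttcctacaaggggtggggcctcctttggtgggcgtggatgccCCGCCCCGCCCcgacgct
Slc1a3, chr15:8710808-8711057, minus strand: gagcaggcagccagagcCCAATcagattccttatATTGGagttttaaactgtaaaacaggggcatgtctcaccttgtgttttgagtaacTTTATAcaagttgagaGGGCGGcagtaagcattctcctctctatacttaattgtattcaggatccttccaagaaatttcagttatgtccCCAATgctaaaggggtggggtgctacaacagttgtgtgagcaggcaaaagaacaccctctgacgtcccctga
The Slc17a7 window held 61.2% G and C, with 9 CpG and 3 GC box matches, of which a pair overlap, and none of the other motifs. The Slc1a3 window held 44.8% G and C, with 2 CpG, 1 GC box match, 1 TATA box match and 3 CCAAT box matches. The highest contents among the other windows were 71.2% in Slc6a11, with 25 CpG, and 70.4% in Slc1a1, with 27 CpG, and the median of all 32851 windows in the table was 52.4%. The window of Slc1a2, at 44.8% with 1 CpG, belongs to a start inside the annotated gene. The E-box was in none of the 10 windows and in 6.02% of all windows, whereas the GC box was in 32.7%, the TATA box in 12.4% and the CCAAT box in 33.8% of all windows. These matches are letters in a window and no measurement of binding was made.

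Levels are given in RPKM, reads per kilobase of exon scaled by sequencing depth, and rest on 13414957 mapped reads in WT 1, 8827967 in WT 2, 14381252 in KI 1 and 14949756 in KI 2. Kdm1a, which encodes LSD1, stood at 11.63 and 11.18 RPKM in WT and 10.97 and 11.17 RPKM in KI, and the substitution itself cannot be seen in gene-level values. Nothing in the labels states whether replicates were separate animals, so p-values measure the spread between these samples. In whole tissue, fewer cells of a type and less RNA per cell cannot be told apart.

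Slc17a7 was the most abundant of the 8 genes and Slc17a8 the least, with a ratio of 274.4 between their mean RPKM over the 4 samples. In every sample the order was Slc17a7, Slc1a2, Slc1a3, Slc6a11, Slc1a1, Slc1a4, Slc17a6 and Slc17a8, and no range of any gene over the 4 samples met that of its neighbour. The closest pair was Slc6a11, whose lowest value was 31.06 RPKM, and Slc1a1, whose highest value was 30.25 RPKM. Slc17a7 ranked 74 among the 18436 genes tested by mean level, Slc1a2 194, Slc1a3 754, Slc6a11 1921, Slc1a1 2198, Slc1a4 4356, Slc17a6 9545 and Slc17a8 14890. These levels depend on the exon length used by the authors. For Slc17a7 that length was 2939 bases, against 5392 bases for the gene in GENCODE M21, and its mean of 399.5 RPKM would be 217.8 with the latter, still the highest of the 8.

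**Figure D1:**
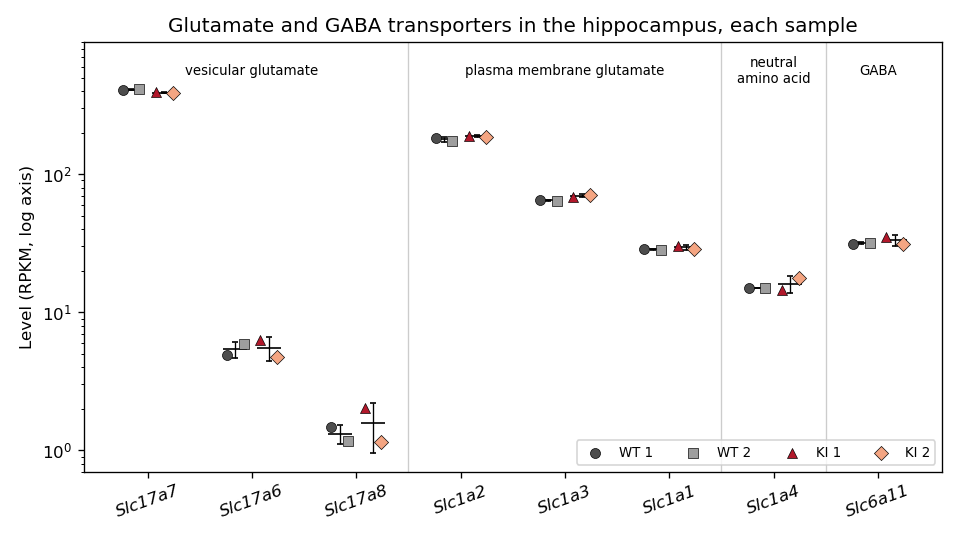
Level in RPKM on a log axis of the 8 transporter genes in each of the 2 WT and 2 KI samples (points), with the mean of each group (horizontal mark) and its SD (bar, n = 2). The genes span from 1.148 RPKM (Slc17a8 in KI 2) to 414.6 RPKM (Slc17a7 in WT 2), and the genes differ from each other far more than the groups do.

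None of the 8 genes passed the threshold for a difference between KI and WT, an adjusted p under 0.1 and at least 1.2-fold by limma on log2(RPKM + 1). The background was the same, since 0 of the 18436 genes tested, or 0%, passed it. At an unadjusted p under 0.05, limma listed 0 of the 8, whereas 1161 genes (6.3%) were listed as higher and 613 (3.33%) as lower in KI over all genes. With limma and voom weights on the reads behind the RPKM values, 277 genes (1.5%) passed the threshold, again with 0 of the 8 among them, and 1 of the 8 (Slc1a3) had an unadjusted p under 0.05. The median log2 fold change was 0.070 over the 8 genes and 0.013 over all genes tested, and 7 of the 8 had a positive value.

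Both KI values were above both WT values for 3 genes (Slc1a2, Slc1a3 and Slc1a1) and below them for 1 gene (Slc17a7), while the groups overlapped for the other 4. Over all genes tested, 24% were above and 18.1% below in this way. With 2 samples against 2, the exact two-sided permutation test has 6 arrangements and cannot give a p below 0.333. Only Slc1a3 (above) and Slc17a7 (below) remained without overlap under both of the other scalings tried, quantile normalization and median of ratios.

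Although no gene passed the threshold, the intervals set limits on the size of a difference. The 95% confidence interval of the fold change of RPKM + 1 lay within 1.2-fold in either direction for 5 genes (Slc17a7, Slc1a2, Slc1a3, Slc1a1 and Slc6a11) and within 1.5-fold for 7, all but Slc17a8. For Slc17a6 and Slc17a8, which are low, the same interval is wider in RPKM itself. The intervals come from limma's pooled estimate of the spread over 2 samples per group.

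**Figure D2:**
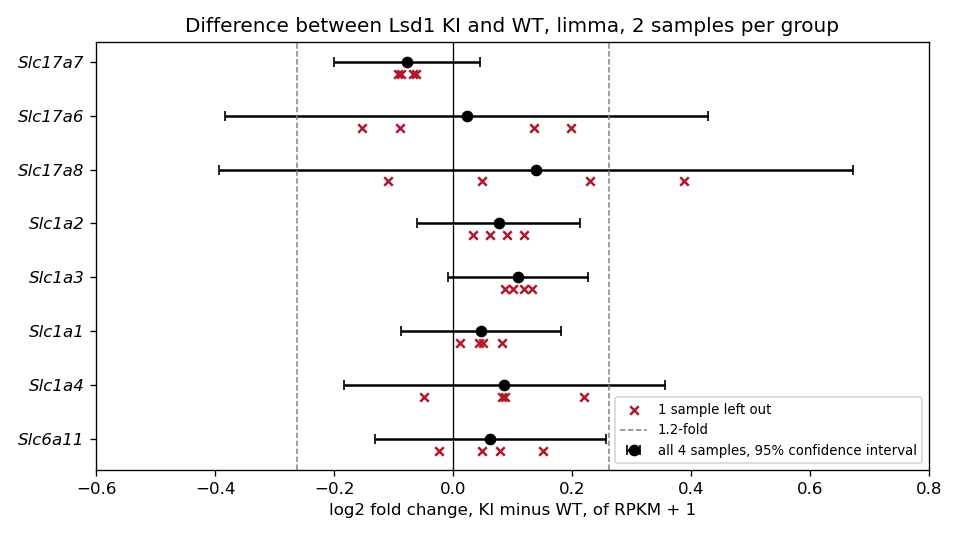
log2 fold change of RPKM + 1, KI minus WT, for each transporter gene, with its 95% confidence interval from limma (black, n = 2 per group) and the values after leaving out each of the 4 samples in turn (red crosses). Every interval crosses 0, and the crosses of Slc17a6, Slc17a8, Slc1a4 and Slc6a11 lie on both sides of it.

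Slc17a7 (VGLUT1, chr7:45163949-45176142, plus strand, GRCm38) loads glutamate at most hippocampal excitatory synapses. It stood at 405.8 RPKM in WT 1, 414.6 in WT 2, 391.5 in KI 1 and 386.0 in KI 2, from 10758 to 16962 reads per sample. Both KI samples were below both WT samples, and the groups did not overlap. The WT mean of 410.2 ± 6.24 RPKM compared with 388.8 ± 3.83 RPKM for KI (SD, n = 2), a difference of -5.23%. On the log2 scale the difference was -0.077 (SE 0.047), with an adjusted p of 0.642 by limma, and the interval ran from 0.87-fold to 1.03-fold.

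The summed level of 12 markers of hippocampal neurons, led by Camk2a, Neurod6 and Neurod2, was also lower in both KI samples, at 1011 and 1006 RPKM in WT and 953.4 and 966.2 RPKM in KI. Camk2a alone held most of this sum, at 611.9 and 601.1 RPKM in WT and 590.2 and 570.1 RPKM in KI. Over all genes tested, 18.1% were below and 24% above without overlap, and 1.5% passed the threshold with voom weights. Of the 12 markers 5 were below and 1 was above without overlap, with a median log2 fold change of -0.040, and 3 passed the threshold with voom weights, all lower in KI. The 3, named after their values were seen, were Prox1, C1ql2 and C1ql3. The other 9 did not pass it, and over all 12 the log2 fold changes ran from -0.52 to 0.23. Neurod6, at 116.9 and 116.3 RPKM in WT and 129.5 and 113.5 RPKM in KI, overlapped (log2 difference 0.056). The lower sum was therefore not shared by every marker of the list. Slc17a7 equalled 40.14% and 41.24% of the summed marker level in WT and 41.06% and 39.95% in KI, a share that rests largely on Camk2a. The ranges of that share overlapped, and the part of these neurons in the Slc17a7 values was not tested.

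Slc17a6 (VGLUT2, chr7:51622006-51671119, plus strand) lies on the same chromosome as Slc17a7, 6.45 Mb away, and is the main vesicular transporter of thalamic and subcortical inputs. It stood at 4.902 RPKM in WT 1, 5.901 in WT 2, 6.327 in KI 1 and 4.739 in KI 2, from 225 to 393 reads. KI 1 was the highest sample and KI 2 the lowest, so the groups overlapped. Group means in RPKM were 5.40 ± 0.71 for WT and 5.53 ± 1.12 for KI (SD, n = 2), and the log2 difference was 0.023 (SE 0.15, adjusted p = 0.98 by limma), with an interval from 0.767-fold to 1.35-fold. Without WT 1 the log2 difference was -0.090, and without KI 1 it was -0.153. The exact Poisson 95% intervals of counting error alone, 5.717 to 6.985 RPKM in KI 1 and 4.223 to 5.301 RPKM in KI 2, did not meet. Had each pair been counted as 2 reads they would meet, at 5.473 to 7.276 RPKM and 4.018 to 5.552 RPKM.

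The summed level of 8 oligodendrocyte markers, among them Mbp and Mobp, had the same order of samples as Slc17a6. It was 941.8 RPKM in WT 1, 1074 in WT 2, 1204 in KI 1 and 907.0 in KI 2, and all 8 markers overlapped between the groups. Slc17a6 equalled 0.520% and 0.549% of this sum in WT and 0.525% and 0.523% in KI. Markers of the thalamus, led by Prkcd, Plekhg1 and Rgs16, had another order, with 18.34 and 17.54 RPKM in WT and 24.92 and 21.46 RPKM in KI for the sum of 10. Of the 7 thalamic markers tested 4 were above and 1 below without overlap, with a median log2 fold change of 0.18, and 2 passed the threshold with voom weights. The shares of all genes tested were 24% above, 18.1% below and 1.5% with voom weights. Tnnt1, at 0.372 and 0.411 RPKM in WT and 0.599 and 0.546 RPKM in KI, reached the 0.5 RPKM of the filter only in KI. It could therefore only count as above, and its log2 fold change was the median. Most of the difference in the sum came from Prkcd, at 7.884 and 6.479 RPKM in WT and 12.42 and 9.074 RPKM in KI, and Rgs16, at 2.295 and 2.567 RPKM in WT and 3.746 and 3.947 RPKM in KI. Plekhg1 overlapped, and Tcf7l2, a defining thalamic marker named after its values were seen, was low throughout, at 0.418 and 0.454 RPKM in WT and 0.35 and 0.375 RPKM in KI. Gbx2, another such marker, had 0 to 2 reads per sample. The part of either tissue in the Slc17a6 values was not tested.

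Slc17a8 (VGLUT3, chr10:89574020-89621253, minus strand) was the least abundant and the most variable of the 8. It stood at 1.469 RPKM in WT 1, 1.176 in WT 2, 2.033 in KI 1 and 1.148 in KI 2, from 49 to 138 reads. KI 1 stood apart as the highest sample, at 139.6% of the mean of the 4 samples, while KI 2 was the lowest, and the highest value was 1.77 times the lowest. The WT mean of 1.32 ± 0.21 RPKM compared with 1.59 ± 0.63 RPKM for KI (SD, n = 2), and the log2 difference was 0.14 (SE 0.20, adjusted p = 0.865 by limma). The interval ran from 0.761-fold to 1.59-fold of RPKM + 1, a scale that understates changes of so low a gene, and with voom weights, which use no such pseudocount, the log2 difference was 0.17 (SE 0.23). Without KI 1 the log2 difference was -0.11. Exact Poisson intervals were 1.708 to 2.402 RPKM in KI 1 and 0.912 to 1.427 RPKM in KI 2, which did not meet.

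The summed level of 12 markers of GABAergic interneurons, led by Cck, Sst and Npy, was 834.3 and 869.2 RPKM in WT and 853.9 and 802.0 RPKM in KI, and KI 1 was not its highest sample. Cck itself was highest in KI 1 (354.1 and 386.6 RPKM in WT, 398.6 in KI 1 and 359.5 in KI 2), as were most of the 12. The abundant Sst (242.8 and 254.0 RPKM in WT, 233.0 and 226.1 RPKM in KI) and Npy (80.47 and 79.65 RPKM in WT, 48.65 and 62.16 RPKM in KI) were not. Of these 12, 4 were above and 2 below without overlap, with a median log2 fold change of 0.059, and 1 (Npy, lower in KI) passed the threshold with voom weights. The shares of all genes tested were 24% above, 18.1% below and 1.5% with voom weights. The 5 genes whose profile over the 4 samples was nearest to that of Slc17a8 were Gm11802, Fxyd2, Thbs1, Gjc3 and Lats2, with Euclidean distances of centred log2(RPKM + 1) from 0.056 to 0.081. Each of them was highest in KI 1. Thbs1 encodes a secreted matrix protein and Gjc3 a connexin of myelinating glia.

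Taken as shares of the summed vesicular transporter level, Slc17a7 held 98.45% and 98.32% in WT and 97.91% and 98.5% in KI, Slc17a6 held 1.19% and 1.4% in WT and 1.58% and 1.21% in KI, and Slc17a8 the remaining 0.356% and 0.279% in WT and 0.509% and 0.293% in KI. Thus VGLUT1 made up nearly all of the vesicular glutamate transporter mRNA in each sample. Slc17a6 as a percent of Slc17a7 was 1.21 and 1.42 in WT and 1.62 and 1.23 in KI, which overlapped (difference 0.106, exact permutation p = 0.667, two-sided, n = 2 each).

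Slc1a2 (GLT-1, chr2:102658659-102790784, plus strand) is the principal glutamate transporter of astrocytes. It stood at 183.9 RPKM in WT 1, 173.1 in WT 2, 190.1 in KI 1 and 186.3 in KI 2, from 20074 to 36585 reads. Both KI samples were above both WT samples, by a gap smaller than the distance between the WT samples. Group means in RPKM were 178.5 ± 7.58 for WT and 188.2 ± 2.66 for KI (SD, n = 2), a difference of 5.44%. The log2 difference was 0.077 (SE 0.052, adjusted p = 0.674 by limma), with an interval from 0.96-fold to 1.16-fold.

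Slc1a3 (GLAST, chr15:8634124-8710764, minus strand), the other astrocyte transporter, stood at 65.1 RPKM in WT 1, 64.29 in WT 2, 68.76 in KI 1 and 71.02 in KI 2, from 4845 to 9064 reads. Both KI samples were above both WT samples, and here the gap was wider than the distance within either group. The WT mean of 64.7 ± 0.58 RPKM compared with 69.89 ± 1.6 RPKM for KI (SD, n = 2), a difference of 8.03%. The log2 difference was 0.11 (SE 0.045, unadjusted p = 0.0619 and adjusted p = 0.527 by limma), with an interval from 0.994-fold to 1.17-fold. With voom weights the unadjusted p was 0.0239 and the adjusted p was 0.325, the smallest of the 8.

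Slc1a1 (EAAC1, chr19:28835049-28913960, plus strand), the transporter of neurons, stood at 28.59 RPKM in WT 1, 28.44 in WT 2, 30.25 in KI 1 and 28.74 in KI 2, from 1549 to 2684 reads. KI 2 was barely above the WT samples and KI 1 was higher. Group means in RPKM were 28.51 ± 0.10 for WT and 29.49 ± 1.07 for KI (SD, n = 2), and the log2 difference was 0.047 (SE 0.051, adjusted p = 0.803 by limma), with an interval from 0.941-fold to 1.13-fold.

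The shares of the 3 plasma membrane glutamate transporters overlapped between the groups. Slc1a2 held 66.25% and 65.12% of their summed level in WT and 65.75% and 65.13% in KI, Slc1a3 held 23.46% and 24.18% in WT and 23.78% and 24.82% in KI, and Slc1a1 held 10.3% and 10.7% in WT and 10.46% and 10.05% in KI. The ratio of Slc1a2 to Slc1a3 was 2.82 and 2.69 in WT and 2.76 and 2.62 in KI, which overlapped (difference -0.0646, exact permutation p = 0.667, two-sided, n = 2 each).

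The 15 astrocyte markers, which hold none of the 8 transporters, were higher in sum in both KI samples. The sum, led by Ndrg2, Aldoc and Atp1b2, was 963.0 and 935.8 RPKM in WT and 1029 and 1040 RPKM in KI, a ratio of 1.09. Of these markers 8 were above and 4 below without overlap, against 24% and 18.1% of all genes tested. Their median log2 fold change was 0.11, and 0 passed the threshold in either fit. The 4 below, named after their values were seen, were Aqp4, S100b, Sox9 and Slc4a4. Ndrg2 had an adjusted p of 0.0169 by limma with voom weights, but its log2 difference of 0.24 was less than 1.2-fold. Most of the difference in the sum came from Ndrg2, at 242.1 and 228.7 RPKM in WT and 276.0 and 282.8 RPKM in KI, and Aldoc, at 208.2 and 196.7 RPKM in WT and 224.0 and 230.1 RPKM in KI. Shares of the sum therefore rest largely on these genes, and shares without them were not taken. Relative to this sum, Slc1a2 stood at 19.09% and 18.5% in WT and 18.47% and 17.92% in KI, and so the KI samples were above WT in RPKM but below WT relative to this sum. Slc1a3 stood at 6.761% and 6.87% in WT and 6.682% and 6.829% in KI, which overlapped. Thus the RPKM of Slc1a2 and Slc1a3 and the astrocyte marker sum all had both KI values above both WT values, and the part of astrocyte number or content was not tested.

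The sums of uptake and of release transporters lay on opposite sides of WT in the KI samples. The summed plasma membrane transporters stood at 277.6 and 265.9 RPKM in WT and 289.1 and 286.1 RPKM in KI, and the summed vesicular transporters at 412.2 and 421.7 RPKM in WT and 399.8 and 391.9 RPKM in KI. The ratio of Slc1a2 plus Slc1a3 to Slc17a7 was 0.613 and 0.573 in WT and 0.661 and 0.667 in KI, without overlap (difference 0.0709, exact permutation p = 0.333, two-sided, n = 2 each, the smallest this design can give). Slc1a2 and Slc1a3 were each above WT and Slc17a7 below without overlap, so this ratio could not overlap and its p was fixed in advance. The ratio was formed with the direction of each gene in view, and it moves with the astrocyte and neuron marker sums above.

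**Figure D3:**
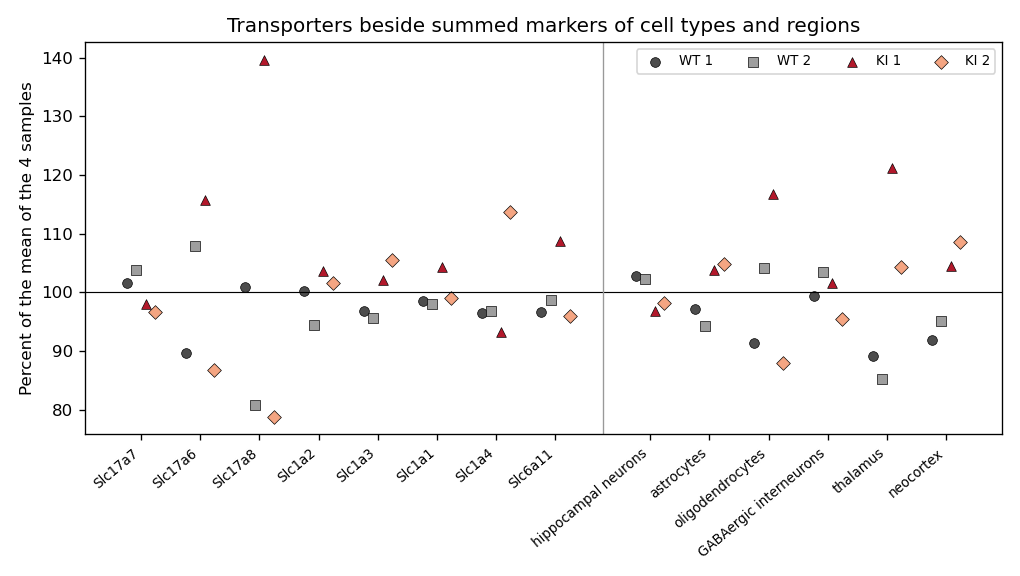
Level in each sample as a percent of the mean of the 4 samples, for the 8 transporters (left of the line) and the summed markers of 6 cell types or regions (right). Slc17a7 and the hippocampal neuron markers are below 100 in both KI samples, Slc1a2, Slc1a3 and the astrocyte markers are above it, and Slc17a6 has the sample order of the oligodendrocyte markers.

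Slc1a4 (ASCT1, chr11:20302180-20332713, minus strand), the carrier of neutral amino acids, stood at 14.92 RPKM in WT 1, 14.97 in WT 2, 14.42 in KI 1 and 17.58 in KI 2, from 519 to 1032 reads. The WT samples were nearly equal, while KI 1 was the lowest and KI 2 the highest of the 4. The WT mean of 14.95 ± 0.04 RPKM compared with 16.0 ± 2.24 RPKM for KI (SD, n = 2), and the log2 difference was 0.086 (SE 0.10, adjusted p = 0.826 by limma), with an interval from 0.88-fold to 1.28-fold. Without KI 2 it was -0.049. Exact Poisson intervals were 13.44 to 15.44 RPKM in KI 1 and 16.53 to 18.69 RPKM in KI 2, which did not meet.

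Slc6a11 (a GABA transporter of astrocytes, chr6:114131241-114249952, plus strand) stood at 31.26 RPKM in WT 1, 31.95 in WT 2, 35.2 in KI 1 and 31.06 in KI 2, from 1147 to 2058 reads. KI 1 was above the other samples, which lay close together. Group means in RPKM were 31.61 ± 0.49 for WT and 33.13 ± 2.92 for KI (SD, n = 2), and the log2 difference was 0.063 (SE 0.074, adjusted p = 0.821 by limma), with an interval from 0.913-fold to 1.19-fold. Without KI 1 it was -0.024. Relative to the astrocyte markers it stood at 3.246% and 3.415% in WT and 3.42% and 2.987% in KI.

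Around these transporters, 30 further genes of the same families and of glutamate and GABA metabolism were examined. Of these 28 were tested, and the low Slc1a7 and Slc6a12 were left out by the filter. None passed the threshold by limma, with log2 fold changes from -0.31 to 0.22 and a median of 0.031. Both KI values were above both WT values for 9 of the 28 (32.1%, against 24% of all genes tested) and below for 4 (14.3%, against 18.1%). Among the 9 was Slc1a5, at 0.395 and 0.409 RPKM in WT and 0.535 and 0.628 RPKM in KI. Slc1a5 reached the 0.5 RPKM of the filter only in KI, so it could only count as above. At an unadjusted p under 0.05, 2 were higher in KI (Glul and Slc32a1, 7.14% against 6.3% of all genes) and 3 were lower (Slc25a18, Slc7a11 and Slc6a13, 10.7% against 3.33%). With voom weights 2 passed the threshold (7.14% against 1.5%), Slc25a18 and Slc7a11, both lower in KI.

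Glul encodes glutamine synthetase, the astrocyte enzyme that turns glutamate into glutamine. It stood at 371.1 and 366.6 RPKM in WT and 441.8 and 418.9 RPKM in KI, without overlap. The log2 difference was 0.22 (SE 0.052, adjusted p = 0.408 by limma and 0.0135 with voom weights), which is less than 1.2-fold. The difference has the same sign as that of the astrocyte marker sum.

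Slc25a18 encodes a mitochondrial glutamate carrier and stood at 29.39 and 31.74 RPKM in WT and 24.47 in each KI sample. Its log2 difference was -0.31 (SE 0.058, adjusted p = 0.34 by limma and 0.0857 with voom weights). Slc7a11, the exchanger of cystine and glutamate, stood at 2.625 and 2.579 RPKM in WT and 2.059 and 1.975 RPKM in KI. Its log2 difference was -0.26 on the log2(RPKM + 1) scale, which understates changes of low genes (adjusted p = 0.501 by limma), and -0.37 with voom weights (adjusted p = 0.0709). Both genes are found largely in astrocytes in the brain, and their differences have the opposite sign to that of the summed astrocyte markers. Of the 15 astrocyte markers, 4 were likewise below WT without overlap, and 8 were above, against 18.1% and 24% of all genes tested.

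Slc6a13 encodes a GABA transporter found in the leptomeninges and stood at 1.694 and 1.638 RPKM in WT and 1.149 and 1.198 RPKM in KI (log2 difference -0.29 and adjusted p = 0.497 by limma on RPKM + 1, and -0.51 and 0.335 with voom weights, from 42 to 66 reads). Slc32a1, the vesicular transporter of GABA and glycine, stood at 22.33 and 22.03 RPKM in WT and 24.96 and 23.94 RPKM in KI (log2 difference 0.13 and adjusted p = 0.516 by limma). Neither passed the threshold in either fit.

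**Figure D4:**
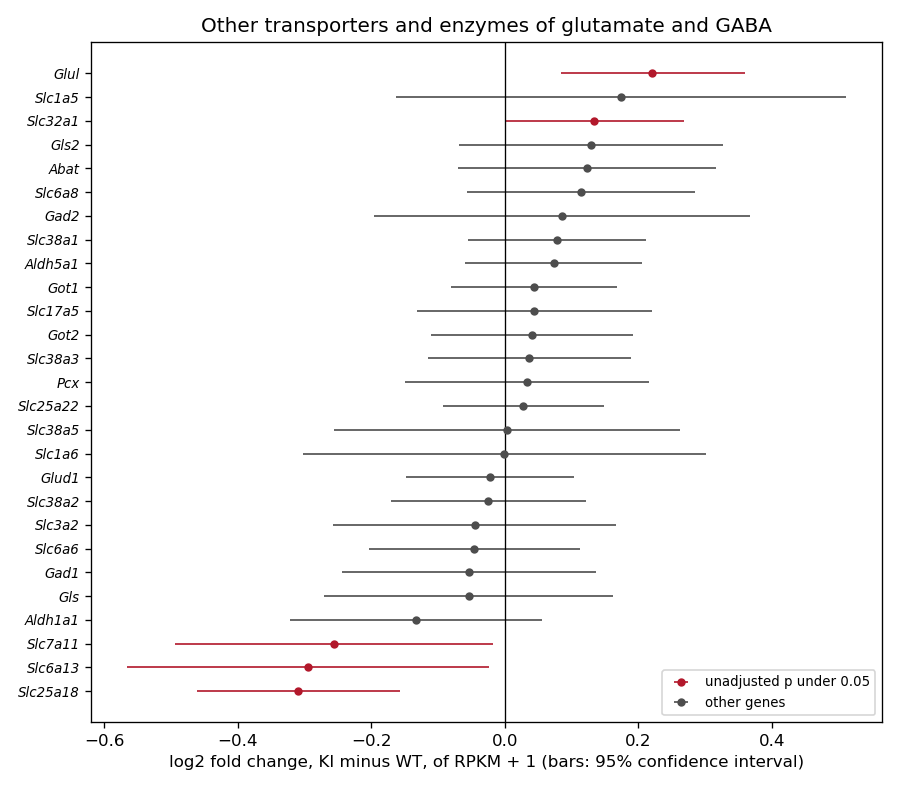
log2 fold change of RPKM + 1, KI minus WT, with 95% confidence intervals from limma (n = 2 per group) for 27 of the 28 other tested genes of glutamate and GABA transport and metabolism, ordered by value. The 5 red genes had an unadjusted p under 0.05, with 2 on the higher and 3 on the lower side, and none passed the adjusted threshold.

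Markers of other cells and regions were summed in the same way. Microglial markers stood at 105.1 and 103.1 RPKM in WT and 112.4 and 104.4 RPKM in KI, and those of endothelium and pericytes at 48.91 and 55.31 RPKM in WT and 53.64 and 55.53 RPKM in KI. Mossy cell markers stood at 110.5 and 107.1 RPKM in WT and 120.9 and 114.6 RPKM in KI. Most of this sum came from Ap2s1 (55.31 and 60.33 RPKM in WT, 62.54 and 62.22 RPKM in KI) and Ociad2 (34.58 and 30.57 RPKM in WT, 40.3 and 33.38 RPKM in KI). Of the 6 mossy cell markers 2 were above without overlap, against 24% of all genes tested, and 4 overlapped, Calb2 among the latter. Neocortical markers stood at 70.1 and 72.55 RPKM in WT and 79.79 and 82.88 RPKM in KI, and striatal markers at 58.29 and 55.83 RPKM in WT and 61.68 and 58.0 RPKM in KI. The median log2 fold change was 0.095 for microglia, 0.044 for endothelium and pericytes, 0.044 for mossy cells, 0.23 for the neocortex and 0.053 for the striatum. Markers of the meninges and choroid plexus stood at 27.69 and 30.97 RPKM in WT and 66.22 and 28.14 RPKM in KI, and the high value of KI 1 came from the choroid plexus gene Ttr (51.28 RPKM there, and 8.133 to 13.85 RPKM elsewhere). Kl was higher in both KI samples, at 4.872 and 5.143 RPKM in WT, 7.049 in KI 1 and 6.715 in KI 2. It passed the threshold with voom weights (log2 difference 0.46, adjusted p = 0.0183 by limma with voom weights). Dcn was lowest in KI 1 (4.237 RPKM, and 9.023 to 11.8 RPKM elsewhere). KI 1 was thus the highest sample for this sum through Ttr, and not for every marker in it. Of the transporters, Slc17a6, Slc17a8, Slc6a11, Slc1a2 and Slc1a1 were highest in KI 1, and a shared source was not tested.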

How the data were processed

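Poly(A) RNA of 2 WT and 2 KI mouse hippocampal samples was sequenced in read pairs. Per the labels and the methods, the authors aligned reads to mm10 with GSNAP (CASAVA is also named in the submitters' processing notes), used pairs that mapped properly and to 1 place, and deposited RPKM values per gene. The reads behind them were recovered from whole-read steps (26327 of 26328 genes, tolerance 1e-11 on ratios between samples), as the smallest whole solution, and whether a pair counted as 1 or 2 is not given in the sources used here (of read numbers of at least 50, 49.2% to 49.9% per sample were even). Gene positions and lengths come from GENCODE M21 and promoters from RefSeq.

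A gene absent from a sample was set to 0. limma (3.58.1, R 4.3.3, with a mean-variance trend) was run on log2(RPKM + 1) for the 18436 genes that reached 0.5 RPKM in 2 or more samples, with Benjamini-Hochberg adjustment. The pseudocount was 1. Single values were compared by exact permutation tests in Python 3.11.15 (scipy 1.17.1), and Poisson intervals cover counting error only. The code was tested on simulated data. Another 13 settings were tried, and 3 more were chosen after seeing the data. The members and all lists (hippocampal neurons, mossy cells, interneurons, astrocytes, oligodendrocytes, microglia, endothelium and pericytes, meninges and choroid plexus, thalamus, neocortex, striatum, and the wider glutamate and GABA list) were chosen with earlier results of these data known. Named were all 8 transporters, genes of the wider list past the threshold, with an unadjusted p under 0.05 or a 1.5-fold change, up to 3 most abundant markers of a list, and the 5 genes nearest in profile to the most variable transporter. Kdm1a, Slc1a5, Slc1a7, Slc6a12, Prox1, C1ql2, C1ql3, Aqp4, S100b, Sox9, Slc4a4, Tcf7l2, Gbx2 and Tnnt1 are named outside this rule. Results of 2 genes among the lists are not reported here.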

Additional observations from a re-analysis of the deposited data

How the results depend on the processing

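The interval of Slc17a8 was the widest of the 8. None of the 8 transporters passed the threshold as reported or under any of the other settings, 13 planned and 3 added. Over all genes the count was 0 as reported, 20 without a mean-variance trend, 1 with at least 10 reads in every sample, 50 with that filter and the replicate block, and 277 with voom weights, which also gave 2 in the wider list. The replicate block alone gave 0 genes. No pairing by replicate number was seen (correlation of deviations -0.025 over 18436 genes and -0.057 over 15959). With 2 samples per group this correlation cannot settle whether samples were paired, and no source says that the numbers mark a litter. Leaving out each sample in turn gave 0 to 0 genes in each of these counts. Transporters without overlap between KI and WT numbered 4, and 2 under quantile normalization and 2 under median of ratios scaling. Leaving out a sample gave 4 to 8, since a lone sample overlaps less readily. At an unadjusted p under 0.05, 1161 genes were higher and 613 lower, against 931 and 845 after quantile normalization and 1011 and 777 after median of ratios scaling.

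The difference in Slc17a6 as a percent of Slc17a7 ranged from -0.0879 to 0.301 when 1 sample was left out, and reversed without WT 1 (-0.00126) and without KI 1 (-0.0879). That in the ratio of Slc1a2 to Slc1a3 ranged from -0.135 to 0.00581, and reversed without WT 1 (0.000884) and without KI 2 (0.00581). Of the 32 log2 fold changes of the transporters with 1 sample left out, 27 kept their direction and 5 reversed, and all 32 with another pseudocount, another scaling or voom weights kept it. The other settings do not move a fold change. With 1 sample left out, Slc1a4 ranged from -0.049 (without KI 2) to 0.221, Slc17a6 from -0.153 (without KI 1; -0.090 without WT 1) to 0.199, Slc17a8 from -0.110 (without KI 1) to 0.388 and Slc6a11 from -0.024 (without KI 1) to 0.151. The cause was not tested.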
